A study of Mus musculus with 8 samples.

Results

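The Mirg cluster is a run of miRNA hairpins, from miR-379 to miR-410, in the imprinted Dlk1-Dio3 region of mouse chromosome 12. It was followed here in miRNA-seq of cartilage cells with and without IL-1β. Members were chosen by name only: both arms (5p and 3p) of 37 hairpins, which gave 74 of the 1966 mature miRNA names in the table. Of these, 65 had at least 1 count, 9 had none in any library, and 52 were abundant enough to be tested among 564 tested miRNAs. Primary articular chondrocytes came from femoral head cartilage of wild-type mice aged 3 weeks, were cultured with serum, and given vehicle (n = 4 libraries) or IL-1β at 1 ng/ml for 24 h (n = 4 libraries). Both groups shared the wild-type genotype, the digestion and the culture, and nothing in the labels says whether the 4 libraries of a group came from separate mice or cultures, so p-values measure the spread between libraries, which may be technical.

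A miRNA hairpin is cut by Drosha in the nucleus and by Dicer in the cytoplasm, and 1 of its arms is loaded into an Argonaute protein, where the seed, bases 2 to 8, pairs with target mRNAs. In the Dlk1-Dio3 region the protein-coding genes are expressed from the paternal chromosome, while the long non-coding RNAs Meg3, Rian and Mirg and the miRNAs are expressed from the maternal chromosome and are generally thought to derive from a single long transcript. The miRNAs of the Mirg cluster are known mainly from brain, embryo and placenta. miR-134, a regulator of dendritic spine size in neurons, is the best known of them.

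The sequences below carry the results: the 4 most abundant members, the single member called as changed (miR-381-3p) with its close relative miR-300-3p, and 2 members with a shared seed (miR-379-5p and miR-1193-5p). Seeds are in capitals, and sequences are RefSeq mature miRNAs (GRCm38.p6), which were matched for 70 of the 74 members.
miR-411-5p: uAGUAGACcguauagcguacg
miR-667-3p: uGACACCUgccacccagcccaag
miR-541-5p: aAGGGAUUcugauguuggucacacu
miR-410-3p: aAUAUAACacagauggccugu
miR-381-3p: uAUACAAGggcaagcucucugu
miR-300-3p: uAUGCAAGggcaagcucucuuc
miR-379-5p: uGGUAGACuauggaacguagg
miR-1193-5p: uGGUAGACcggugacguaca
Counted from the 5′ end of miR-381-3p, miR-300-3p differs by A4G, G21U and U22C, of which A4G lies in the seed. The seed of miR-411-5p differs from that of miR-379-5p by G2A alone, counted from the 5′ end of miR-379-5p, and beyond the seed these 2 miRNAs differ at 6 more positions.

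Library totals ranged from 616475 to 1568367 counts, and a single count stood for 0.638 to 1.62 CPM (counts per 1000000 in that library). Levels are given as normalized CPM, for which each total was first multiplied by a TMM factor that corrects for library composition. IL-1β replicate 4 stood apart. Each library's log2 levels were set against the mean of the other libraries of its group, over the 195 miRNAs averaging 50 counts or more. The SD of these deviations was 0.40 in IL-1β replicate 4, against 0.15 to 0.23 in the other 7 libraries. The cartilage miRNAs miR-140 and miR-455 held 156000 to 168000 CPM with vehicle and 124000 to 153000 CPM with IL-1β. Of 9 haematopoietic names, 4 had counts, nearly all of them miR-150-5p, with a sum of 46.2 to 64.4 CPM with vehicle and 26.0 to 47.1 CPM with IL-1β. The muscle names and miR-122 were at 0, and endothelial and epithelial names summed to at most 2.88 and 10.1 CPM. The part of these differences in the results was not tested.

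The hairpins of the cluster lie close together on the plus strand. From the start of Mir379 to the end of Mir410 they span 34.7 kb of chromosome 12 (109709060 to 109743795, GRCm38), and 36 of the 37 hairpins fall in this span. The GENCODE gene Mirg, a long non-coding RNA at 109729764 to 109749460 on the same strand, holds only the last 12 of them: Mir382, Mir134, Mir668, Mir485, Mir377, Mir412, Mir369 and Mir410 in exons and Mir154, Mir496a, Mir541 and Mir409 in introns. The other 24 lie before its annotated start, outside any annotated host gene. The hairpin that goes against the cluster's name is Mir3544, which is annotated on the minus strand at 109585813 to 109585873, opposite Mir337 and 123.2 kb upstream of Mir379. It held 17 counts in all, and leaving it out changed the median log2 fold change of the members from -0.104 to -0.105.

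The cluster was present in chondrocytes as a small and uneven part of the miRNA pool. The members' summed share of the library was 1.63% ± 0.0454 in the vehicle group and 1.54% ± 0.0497 in the IL-1β group (SD, n = 4). For comparison, the miRNAs antisense to Rtl1, upstream in the same region and including miR-127, took 18.41% ± 0.400 and 17.98% ± 0.346. Within the cluster, miR-411-5p alone held 32.5% of the members' counts. With miR-667-3p, miR-541-5p and miR-410-3p it made up 75.7%, and the 10 most abundant members made up 94.1%. miR-411-5p has been reported to target Mmp13, the collagenase that degrades cartilage type II collagen. In mean level over the 8 libraries, 4 members exceeded 1000 normalized CPM, 7 lay between 100 and 1000, 22 between 10 and 100, and 19 between 1 and 10. Another 13 had counts but lay at or below 1, and 9 were at 0.

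Levels differed widely between hairpins, neighbours included. Summed over both arms, miR-411 (1.12 kb from the start of Mir379) stood at 5150 normalized CPM, between miR-379 at 52.0 and miR-299a at 75.8. At 10.95 kb, miR-667 stood at 2481 normalized CPM, while its upstream neighbour miR-495 reached 1.04. Between miR-487b at 18.3 kb and miR-382 at 24.7 kb lay miR-539, with 2 counts in all, and miR-544, with none. The far end of the cluster again held abundant hairpins, with miR-668 at 672, miR-485 at 1033, miR-541 at 2490, miR-409 at 608 and miR-410 at 1881 normalized CPM, and among them miR-154, miR-496a, miR-377, miR-412 and miR-369 at 10.9 to 41.5. The 9 members without a count were both arms of miR-544 and miR-654, and miR-1197-5p, miR-154-3p, miR-539-3p, miR-668-5p and miR-758-5p. For each of them, 0 of 7959576 counts allow a level of up to 0.377 CPM over all libraries, and up to 1.91 to 4.87 CPM in a single library. Library preparation favors some miRNA sequences over others, so these orders of level hold for counts, not for molar amounts.

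**Figure D1:**
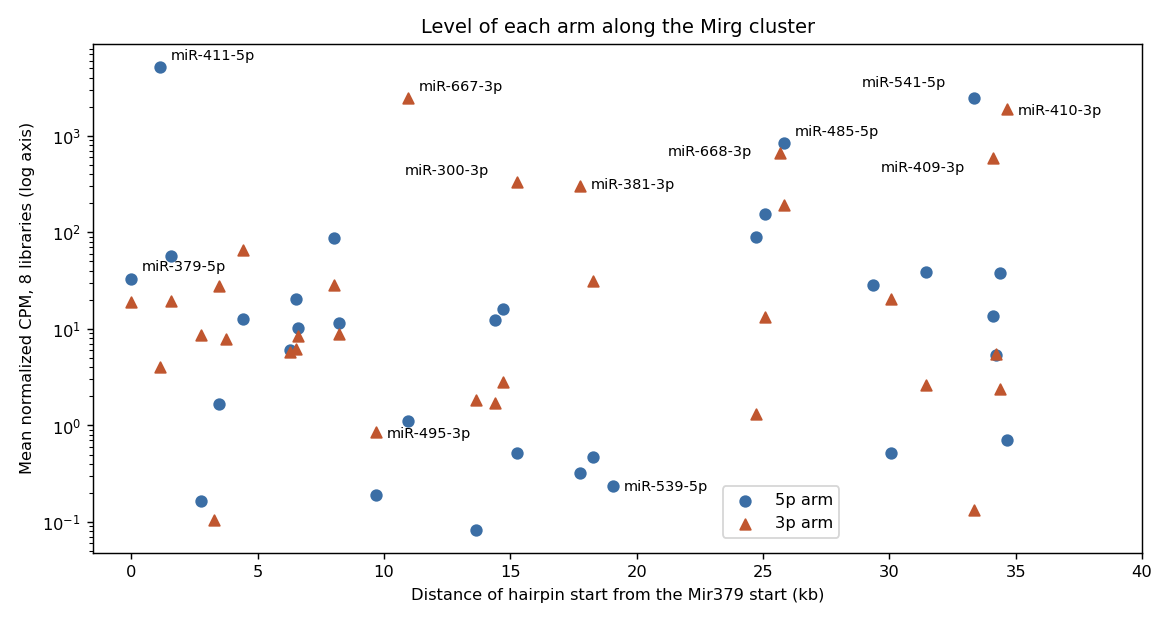
Mean normalized CPM over the 8 libraries (log axis) of each member with a count, against the distance of its hairpin from the Mir379 start in kb; circles are 5p arms, triangles 3p arms, and the 9 members at 0 and miR-3544 are not drawn. miR-411-5p, miR-667-3p, miR-541-5p and miR-410-3p lie above 1000 normalized CPM, whereas miR-495-3p and miR-539-5p lie below 1.

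Arm choice differed from hairpin to hairpin. Of the 27 hairpins with at least 100 counts, 7 gave over 90% of them from the 5p arm, 9 gave over 90% from the 3p arm, and 11 gave a mixture. miR-411 was almost purely 5p (99.9%, with 41366 counts against 33), whereas miR-667 and miR-410 were almost purely 3p (0.0598% and 0.0332% from the 5p arm). miR-485, with 81.6% from the 5p arm, had abundant products of both arms. The mixed hairpins included miR-379 (61.9% from the 5p arm), miR-1193 (54.3%), miR-543 (54.9%) and miR-494 (50.0%).

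**Figure D2:**
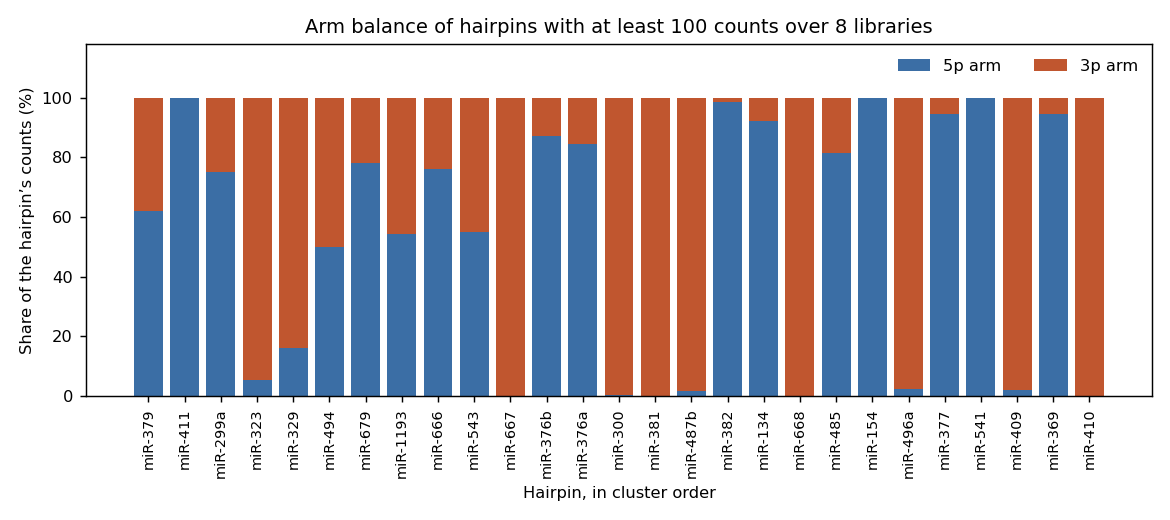
Share of each hairpin's counts (%, summed over 8 libraries) from the 5p arm (blue) and the 3p arm (orange), for the 27 hairpins with at least 100 counts in cluster order. Of these, 7 are over 90% 5p, 9 are over 90% 3p, and the other 11 are mixed.

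Seeds were diverse. The 62 members with counts and a matched sequence had 58 seeds, and only 4 seeds were shared by members: by miR-379-5p and miR-1193-5p, by miR-379-3p and miR-411-3p, by miR-410-5p and miR-494-5p, and by miR-376b-5p and miR-376c-5p. Another 6 seeds were found also among miRNAs outside the cluster that had counts, among them those of miR-410-3p (with miR-344d-3p), miR-329-3p (with miR-362-3p) and miR-377-5p (with miR-672-5p). The members had a median GC content of 46.4%, against 54.5% in the 810 other miRNAs with counts, at the same median length of 22 nt. U was the first base in 40.3% of members and in 41.6% of the others. Members that resemble each other (miR-376b-5p and miR-376c-5p, with 1 mismatch, miR-379-3p and miR-411-3p, with 2, and with 3 each miR-381-3p and miR-300-3p, miR-376a-3p and miR-376b-3p, miR-154-5p and miR-494-5p, and miR-379-3p and miR-758-3p) could exchange reads in counting, and miR-299a lies opposite Mir299b on the other strand, so that their split is uncertain.

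Whether IL-1β changed the cluster was examined with the edgeR quasi-likelihood test over all 564 miRNAs, in which a miRNA was called at a Benjamini-Hochberg adjusted p under 0.05 and an absolute log2 fold change over 0.3. miR-381-3p was lower with IL-1β and was the single member called. No member was called higher, and 4 of the 52 had an unadjusted p under 0.05, against 63 of all 564. The share called, 1 of 52, was close to that of all tested miRNAs, of which 11 were called (1.95%), 3 of them lower (0.532%) and 8 higher (1.42%). The groups did not overlap for 1 of 52 members, against 43 of 564 miRNAs (7.62%). In these bulk samples fewer cells of a type and less of a miRNA per cell cannot be told apart.

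Short of single calls, the estimates leaned downward. Of the 52 tested members, 34 (65.4%) had a log2 fold change below 0, against 49.5% of all tested miRNAs, and the median was -0.104, against 0.006. Among the 15 members with a mean of at least 50 counts, 10 had a log2 fold change below 0, the median was -0.103 and the range was -0.37 to 0.03. Before the annotated start of Mirg the median was -0.109 over 32 tested members, and within Mirg it was -0.103 over 19. Among those averaging 50 counts or more, it was -0.116 before Mirg (6 of 7 below 0) and -0.003 within it (4 of 8 below 0). Because members were chosen as a list with results of these data known, no test was made of the list. Leaving out vehicle replicate 2 brought the median to -0.044, and leaving out IL-1β replicate 2 left 28 of 52 members below 0.

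The summed share was also lower with IL-1β. Members took 1.604%, 1.619%, 1.701% and 1.612% of counts in vehicle replicates 1 to 4 and 1.581%, 1.586%, 1.504% and 1.492% in IL-1β replicates 1 to 4. In these shares of raw totals every IL-1β library lay below every vehicle library, with vehicle replicate 1 and IL-1β replicate 2 nearest to each other. The TMM factor is not part of the shares. It was 0.932 for IL-1β replicate 4 and 0.985 to 1.04 for the rest. Applying it raises IL-1β replicate 4 relative to the rest, so the separation is given for raw totals only. The log2 ratio of the mean shares was -0.085, and -0.129 with the 10 most abundant miRNAs of the table left out of the totals.

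**Figure D3:**
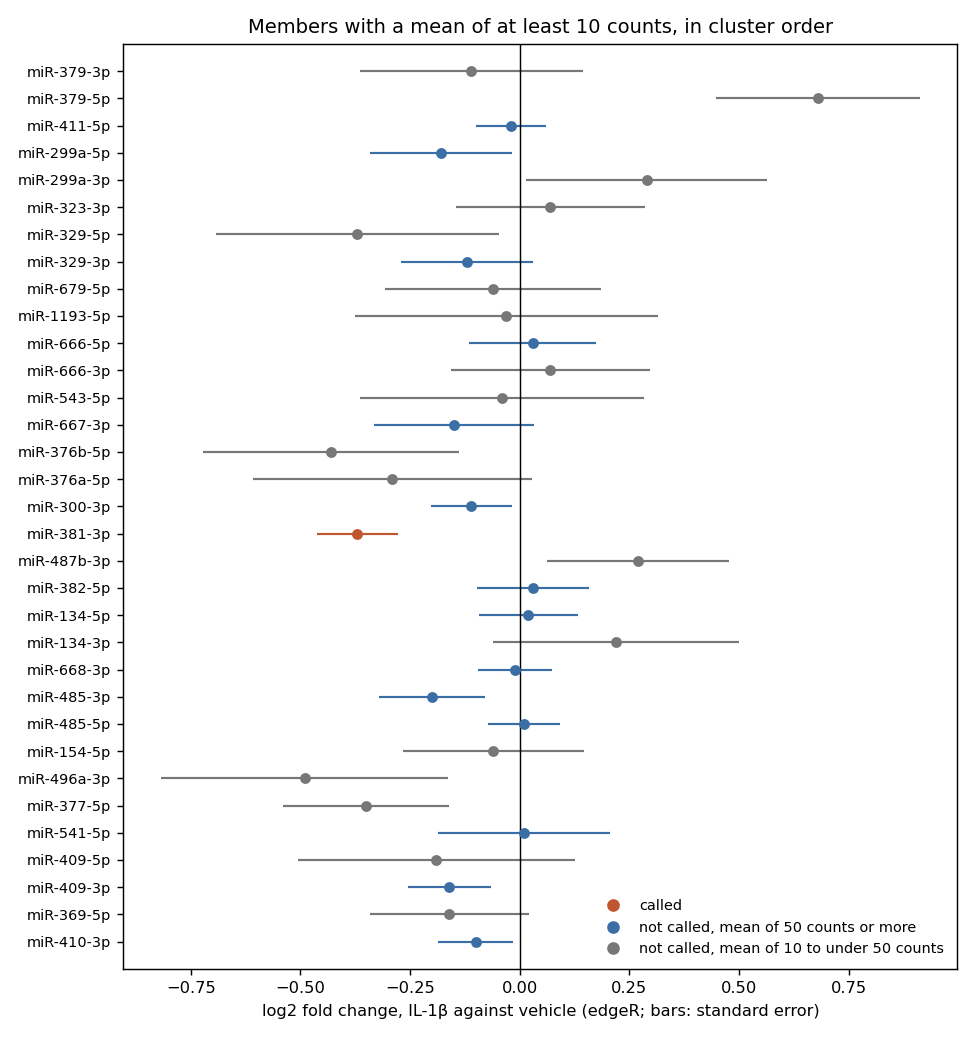
log2 fold change, IL-1β against vehicle, with its standard error (edgeR), for the 33 members with a mean of at least 10 counts in cluster order; orange is called, blue not called with a mean of at least 50 counts, gray not called with fewer. miR-381-3p (-0.37) is the single call, and miR-379-5p (0.68) lies farthest to the right.

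miR-381-3p is encoded by Mir381, on the plus strand of chromosome 12 at 109726822 to 109726896 (GRCm38), 17.8 kb from the start of Mir379 and before the annotated Mirg gene. Its level was 352, 316, 354 and 346 normalized CPM in vehicle replicates 1 to 4 and 264, 267, 273 and 256 in IL-1β replicates 1 to 4. All 4 IL-1β libraries were below all 4 vehicle libraries. The mean fell from 342 ± 17.4 to 265 ± 7.33 normalized CPM (SD, n = 4). This was a log2 fold change of -0.37 (SE 0.0932, adjusted p = 0.0323 in edgeR). The call held without IL-1β replicate 4 (-0.35, edgeR adjusted p = 0.0166), but it was lost when any 1 of 6 other libraries was left out (all but vehicle replicate 2), with an adjusted p of up to 0.124 and a log2 fold change of -0.35 to -0.39.

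Its relative miR-300-3p, which shares all but 3 bases, was at a similar level and was not called. In the same library order it measured 332, 364, 339 and 346 normalized CPM with vehicle and 302, 326, 343 and 306 with IL-1β. These groups overlapped, and the log2 fold change was -0.11 (SE 0.0924, edgeR adjusted p = 0.753). The log2 ratio of miR-381-3p to miR-300-3p, which does not depend on library scaling, was 0.08, -0.20, 0.06 and 0.00 with vehicle and -0.20, -0.29, -0.33 and -0.26 with IL-1β. The difference of -0.25 did not pass an exact permutation test (two-sided p = 0.0571, smallest possible 0.0286), so the 2 relatives were not shown to differ in response. This pair was chosen after its values were seen.

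The most abundant member, miR-411-5p, was at 4970, 5648, 5143 and 4930 normalized CPM with vehicle and 5056, 4960, 5043 and 5417 with IL-1β. The groups overlapped throughout, with means of 5173 ± 330 and 5119 ± 203 (SD, n = 4). Its log2 fold change was -0.02 (SE 0.0804, edgeR adjusted p = 0.992).

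The next most abundant members, miR-667-3p and miR-541-5p, turned on IL-1β replicate 4. miR-667-3p was at 2588, 2315, 2833 and 2715 normalized CPM with vehicle and at 2756, 2876, 2231 and 1521 with IL-1β, the last being the lowest of all 8 libraries. miR-541-5p was at 2253, 2579, 2748 and 2349 normalized CPM with vehicle and at 2073, 1945, 2296 and 3680 with IL-1β, the last being the highest of all. In that library miR-541-5p made up 23.0% of the members' counts, against 12.7% to 16.5% in the other 7, and miR-667-3p made up 9.51%, against 14.2% to 18.8%. Their log2 fold changes were -0.15 (SE 0.182) and 0.01 (SE 0.197) and neither was called. Without IL-1β replicate 4, miR-541-5p had a log2 fold change of -0.24 (edgeR adjusted p = 0.0399), under the fold threshold, and miR-667-3p one of 0.01.

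**Figure D4:**
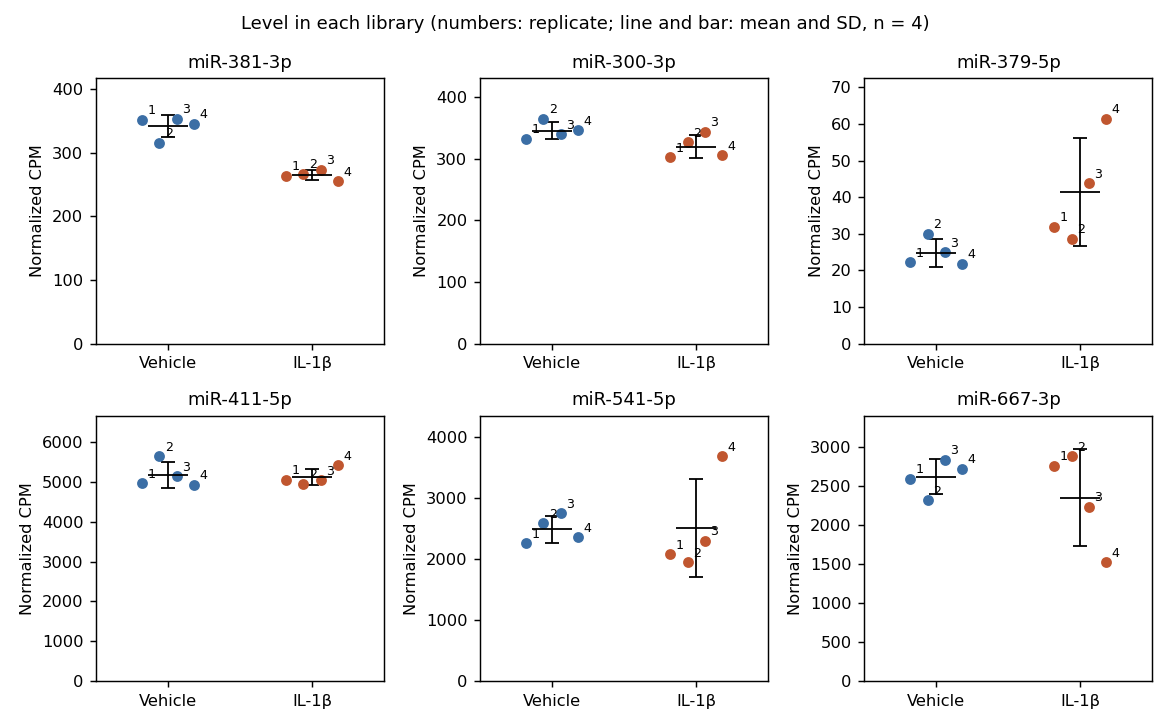
Normalized CPM of 6 members in each library (points, numbered by replicate), with the mean and SD of each group (n = 4, black). miR-381-3p separates the groups, miR-300-3p and miR-411-5p overlap, and IL-1β replicate 4 is highest for miR-379-5p and miR-541-5p and lowest for miR-667-3p.

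miR-410-3p and miR-409-3p, at the far end of the cluster, were not called. miR-410-3p was at 2015, 1893, 1914 and 1971 normalized CPM with vehicle and 1913, 1934, 1857 and 1547 with IL-1β. Its groups overlapped through IL-1β replicates 1 and 2, and its log2 fold change was -0.10 (SE 0.0856, edgeR adjusted p = 0.753), which became -0.03 (edgeR adjusted p = 0.928) without IL-1β replicate 4. miR-409-3p was at 614, 647, 620 and 626 normalized CPM with vehicle and 509, 521, 548 and 672 with IL-1β. The first 3 IL-1β libraries lay below all vehicle libraries and the last one above them. Its estimate of -0.16 (log2 fold change, SE 0.0942, edgeR adjusted p = 0.650) became -0.25 (edgeR adjusted p = 0.0399) without IL-1β replicate 4, again under the fold threshold.

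miR-668 and miR-485 lie next to each other in exons of Mirg, and none of their arms was called. miR-668-3p was at 628 to 718 normalized CPM with vehicle (median 677) and 646 to 693 with IL-1β, with a log2 fold change of -0.01 (SE 0.0838). miR-485-5p lay at 804, 822, 897 and 837 normalized CPM with vehicle and 880, 797, 843 and 866 with IL-1β, with a log2 fold change of 0.01 (SE 0.0824). Both overlapped between the groups. From the other arm of the same hairpin, miR-485-3p was at 244, 178, 197 and 198 normalized CPM with vehicle and 184, 186, 191 and 144 with IL-1β. Its estimate of -0.20 (log2 fold change, SE 0.121, edgeR adjusted p = 0.650) was the second largest fall among members with a mean of at least 50 counts, and miR-299a-5p had the third largest (-0.18, SE 0.162). Both turned on single libraries: miR-485-3p was at -0.11 without IL-1β replicate 4 and also without vehicle replicate 1, and miR-299a-5p was at -0.11 without vehicle replicate 1 and -0.07 without IL-1β replicate 2. The largest rises in that class were 0.03 for miR-382-5p and miR-666-5p and 0.02 for miR-134-5p, the regulator of dendritic spines. All 3 were within their standard errors (0.128, 0.145 and 0.112).

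Among the scarcer members, miR-379-5p was higher with IL-1β in the estimate but was not called. It measured 22.27, 30.03, 24.99 and 21.81 normalized CPM with vehicle and 32.0, 28.7, 43.8 and 61.4 with IL-1β. The groups overlapped through vehicle replicate 2 and IL-1β replicate 2. The log2 fold change was 0.68 (SE 0.232, edgeR adjusted p = 0.159), and 0.41 (edgeR adjusted p = 0.476) without IL-1β replicate 4, whereas it was called without IL-1β replicate 2 (0.87, edgeR adjusted p = 0.0471). miR-1193-5p, which carries the same seed, had means of 9.64 ± 2.83 and 10.6 ± 3.76 normalized CPM (SD, n = 4). Its fitted log2 fold change of -0.03 (SE 0.346) was opposite in sign to the difference of these means, and gave no direction.

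miR-494-3p was at 6.36, 10.0, 10.6 and 6.23 normalized CPM with vehicle and at 6.40, 3.37, 2.92 and 0 with IL-1β. It was lowest in IL-1β replicate 4, and the groups overlapped through IL-1β replicate 1. Its log2 fold change was -1.5 (SE 0.516, edgeR adjusted p = 0.170), on 52 counts in all, and -1.11 (edgeR adjusted p = 0.299) without IL-1β replicate 4. miR-376b-3p had 14 counts over the vehicle libraries and 1 over the IL-1β libraries, a ratio of 9.84 with an exact (Clopper-Pearson) 95% counting interval of 1.5 to 416. It passed the filter on low counts through the vehicle libraries, in which it is higher, so that its direction was favored by the filter, and it was not called (edgeR adjusted p = 0.209). These intervals cover counting error only.

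The balance between arms was compared within libraries as log2 of the 5p count over the 3p count. Of 142 hairpins tested with limma, none was called (0%), 12 had an unadjusted p under 0.05 (8.45%) and the lowest adjusted p was 0.390. Of the 20 hairpins of the cluster among them, 3 had an unadjusted p under 0.05. miR-679, with the lowest adjusted p, had log2 arm ratios of 2.19, 2.02, 2.37 and 2.20 with vehicle and 1.04, 1.27, 1.05 and 1.95 with IL-1β. Its difference was -0.87 (SE 0.258, limma adjusted p = 0.390), on 46 counts of the 3p arm in all, 2 to 8 in a library. For miR-411 the ratio was higher with IL-1β by 0.75 (SE 0.320) and for miR-376b by 1.58 (SE 0.601), both with a limma adjusted p of 0.523, and these rested on 33 and 15 counts of the minor 3p arm. The filter admitted miR-376b through its vehicle libraries, which favored this direction. For miR-379 the ratio was 0.22, 0.36, 0.46 and 0.21 with vehicle and 0.83, 0.23, 1.54 and 1.99 with IL-1β. The groups overlapped, with an adjusted p again of 0.523 by limma.

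Other miRNAs of the region were listed for comparison. Next to Meg3, 9 of 12 names were tested: all 9 had a log2 fold change below 0, with a median of -0.221, and 1 was called lower (miR-540-3p). Antisense to Rtl1, 12 of 15 names were tested, 7 were below 0, none was called in edgeR (1 had an unadjusted p under 0.05), and the median was -0.067. Of miR-341, miR-1188 and miR-370, between these and the Mirg cluster, 4 of 6 arms were tested and all 4 were below 0, with a median of -0.331. These lists use the same libraries, and differences between them were not tested.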

How the data were processed

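miRNA-seq was performed on total RNA of mouse articular chondrocytes, in 8 libraries. The authors trimmed reads with cutadapt, aligned them to mm10 with STAR and counted them with featureCounts, and the deposited table holds whole-number counts per mature miRNA. The version of STAR differs between the sources used here, and the handling of strand and of reads that map to several places is not given in them. A correction for unwanted variation is also described in the study. Whether it was applied to this table is not given in the sources used here and was not tested, and the values were used as raw counts.

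Groups came from the sample labels. Library pairs differed by more than sampling noise. Counts were tested with edgeR 4.0.16 in R 4.3.3 (robust quasi-likelihood fit, TMM, two-sided), with group as the only term, for miRNAs over 1 CPM in at least 4 of 8 libraries. The standard error is the log2 fold change divided by the square root of F. Arm ratios, log2((5p + 0.5)/(3p + 0.5)), were tested with limma 3.58.1 for hairpins with both arms tested. DESeq2 1.42.0 was an alternative. Intervals and floors (3 counts) cover counting error only, and no molecular identifiers were described. Positions came from GENCODE M21 and RefSeq (GRCm38).

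Named members were, by rule, those called, those with an unadjusted p under 0.05, the 10 most abundant, the 3 largest rises and falls with a mean of at least 50 counts, hairpins with both arms tested, and members that share a seed with one of these. The members and lists were chosen with earlier results of these data known.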

Additional observations from a re-analysis of the deposited data

Results flagged for a closer look

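In 4 of 78 groups of 4 libraries examined, a single library lay far from the other 3, about as many as the 5 in 100 that chance gives. miR-485-3p was at 144.1 normalized CPM in IL-1β replicate 4, against 184.0 to 191.4 in the other IL-1β libraries. The members' share of counts was 1.701% in vehicle replicate 3, against 1.604% to 1.619% in the other vehicle libraries. The log2 arm ratio of miR-134 was 3.99 in vehicle replicate 2, against 3.41 to 3.47 in the others. miR-376b-3p was at 1.461 normalized CPM, a single count, in IL-1β replicate 3 and at 0 in the other IL-1β libraries.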

How the results depend on the processing

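miR-381-3p was called under each alternative scaling, filter and tool run, and under the replicate block, in part close to the threshold. Its adjusted p was 0.0499 in DESeq2. In edgeR it was 0.0466 under the replicate block, and from 0.0161 (TMM without the members) to 0.0486 (no filter) under the other scalings and filters. With 1 factor of unwanted variation in the model, 3 members were called, 1 higher (miR-379-5p) and 2 lower (miR-381-3p and miR-494-3p). With a log2 fold change over 1 required, 0 were called. Leaving out 1 library gave 0 to 1 members called, 0 to 1 higher and 0 to 1 lower, a median log2 fold change of -0.129 to -0.044, and a log2 ratio of shares of -0.099 to -0.065. That ratio was -0.129 without the 10 most abundant miRNAs. TMM without the members moved the median of all tested miRNAs from 0.006 to -0.041 and that of the members to -0.150, with 39 of 52 below 0. With a mean of at least 10 counts required, 22 of 33 were below 0. Leaving out 1 library gave 28 to 36 of 52 below 0, the fewest without IL-1β replicate 2.

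Estimates near 0 changed sign. With library totals only they were -0.0079 for miR-134-5p, -0.02 for miR-485-5p and -0.03 for miR-541-5p. Using TMM without the members, they were -0.03 for miR-134-5p, -0.02 for miR-382-5p and miR-666-5p, and -0.04 for miR-485-5p and miR-541-5p. With no filter they were -0.00093 for miR-134-5p, -0.0054 for miR-485-5p and -0.02 for miR-541-5p. For miR-541-5p the value was -0.04 under the replicate block and -0.05 with the factor of unwanted variation. Leaving out 1 library gave -0.02 to 0.05 for miR-134-5p, -0.01 to 0.06 for miR-382-5p, -0.04 to 0.03 for miR-411-5p, -0.03 to 0.04 for miR-485-5p, -0.24 to 0.11 for miR-541-5p, -0.08 to 0.12 for miR-666-5p, -0.27 to 0.0076 for miR-667-3p and -0.06 to 0.02 for miR-668-3p. The cause was not tested.

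Same-numbered libraries of both groups deviated together by correlations of 0.17, -0.34, 0.10 and -0.18 over 195 miRNAs, and 2 of 4 numbers correlated best with their own, so numbers were not taken as pairs. With the replicate block 19 of 564 miRNAs were called, against 11, and 1 member. Depth limits the members with few counts: 13 with counts were not tested, the most abundant at 0.853 normalized CPM.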
